A study of Mus musculus with 6 samples.

Results

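A set of 10 genes was followed. They are the core of transforming growth factor β (TGF-β) signalling in regulatory CD4+ T cells (Treg): the ligand Tgfb1, the receptors Tgfbr1, Tgfbr2 and Tgfbr3, the signal transducers Smad2, Smad3 and Smad4, the inhibitory Smad7 and the nuclear repressors Ski and Skil. They were taken by gene symbol, and all 10 were found among the 29199 genes of the count table and among the 18321 that had enough counts to be tested. RNA was sequenced from wild-type (WT) Treg sorted from spleen 3 weeks after irradiated B6 hosts had received bone marrow from B6 and B6D2F1 donors (B6D2F1 cells carry foreign H-2Kd), these Treg and naive conventional CD4+ T cells (Tconv). In 3 libraries the Tconv were WT, and in the other 3 they came from mice that lack HP1α (HP1α KO), a heterochromatin protein encoded by Cbx5. The Treg were WT in both groups, so the comparison asks what the absence of HP1α in Tconv does to the RNA of normal Treg in the same host.

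The Treg came from B6 Foxp3-Thy1.1 mice. Before transfer they were expanded in culture with beads that carry antibodies to CD3 and CD28, with IL-2 at 500 IU/mL and with TGF-β1 itself at 0.1 ng/mL. The phase with beads lasted 3 days and the phase without them 5 to 7 days, so the Treg of both groups had met the ligand in culture before the graft. The HP1α KO animals had lost the gene in all cells through a CMV-cre transgene, their background mixing 129/Sv and C57BL/6, and the WT Tconv were from their littermates. Male mice aged 6 to 12 weeks were used. The sort took CD4+ cells that were CD45.1-, CD45.2+, Thy1.1+, H-2Kb+ and H-2Kd-. The labels number the libraries of each group from 1 to 3 without saying whether they came from separate mice, and the p-values below therefore measure the spread between libraries.

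TGF-β1 is made as a latent complex and must be released before it can bind. The active ligand brings together the type II receptor Tgfbr2 and the type I receptor Tgfbr1, which phosphorylates Smad2 and Smad3. These pair with Smad4, enter the nucleus and act on target genes. Smad7 and Skil are themselves well known targets of the pathway and feed back on it, Smad7 at the receptor and Skil, like its relative Ski, by holding Smad complexes in a repressed state on DNA. In Treg the pathway is known for its part in inducing and keeping Foxp3, the transcription factor that defines the lineage.

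Each library held between 87421755 and 119078882 estimated counts, and levels are given below as CPM (a gene's counts scaled to a common library size). All 9 Treg markers looked for were detected in all 6 libraries, with a summed level of 4733 to 5408 CPM of total counts with WT Tconv and 4710 to 5016 with HP1α KO Tconv. A pair of libraries stood apart. WT replicate 3 held 5501 CPM of red cell genes against 370.2 to 687.7 in the other 5 libraries, 1818 CPM of neutrophil genes against 41.0 to 225.0, and 174.9 CPM of macrophage and monocyte genes against 9.31 to 44.1. HP1α KO replicate 2 held 0.972% of its counts in mitochondrial genes against 2.52% to 2.88% in the others, and 0.679% in Malat1, a nuclear RNA, against 1.06% to 1.49%. The Malat1 share did not overlap between the groups, with 1.249%, 0.679% and 1.064% beside HP1α KO Tconv and 1.358%, 1.49% and 1.274% beside WT Tconv. Cbx5 was present in both groups, at 135.5 ± 18.5 CPM with WT Tconv and 120.1 ± 12.01 with HP1α KO Tconv (SD, n = 3 each), which checks only that the sorted Treg carried the gene.

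Most of the 10 genes stood at similar levels in the groups, and the clearest differences were in 2 of the inhibitors. Skil and Smad7 were at a lower level in each of the 3 libraries with HP1α KO Tconv than in any with WT Tconv, by 1.55-fold and 1.48-fold. The type I and type II receptors, Smad2, Smad3 and Smad4 differed by less than 0.04 on the log2 scale. None of the 10 genes passed an adjusted p of 0.05 in edgeR's quasi-likelihood test, where 0 of 18321 genes did (percentage called, 0). DESeq2, run on the same counts as an alternative, called Skil and Smad7, both lower with HP1α KO Tconv, where it called 4.35% of the 12097 genes to which it gave an adjusted p and 3.03% as lower.

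**Figure D1:**
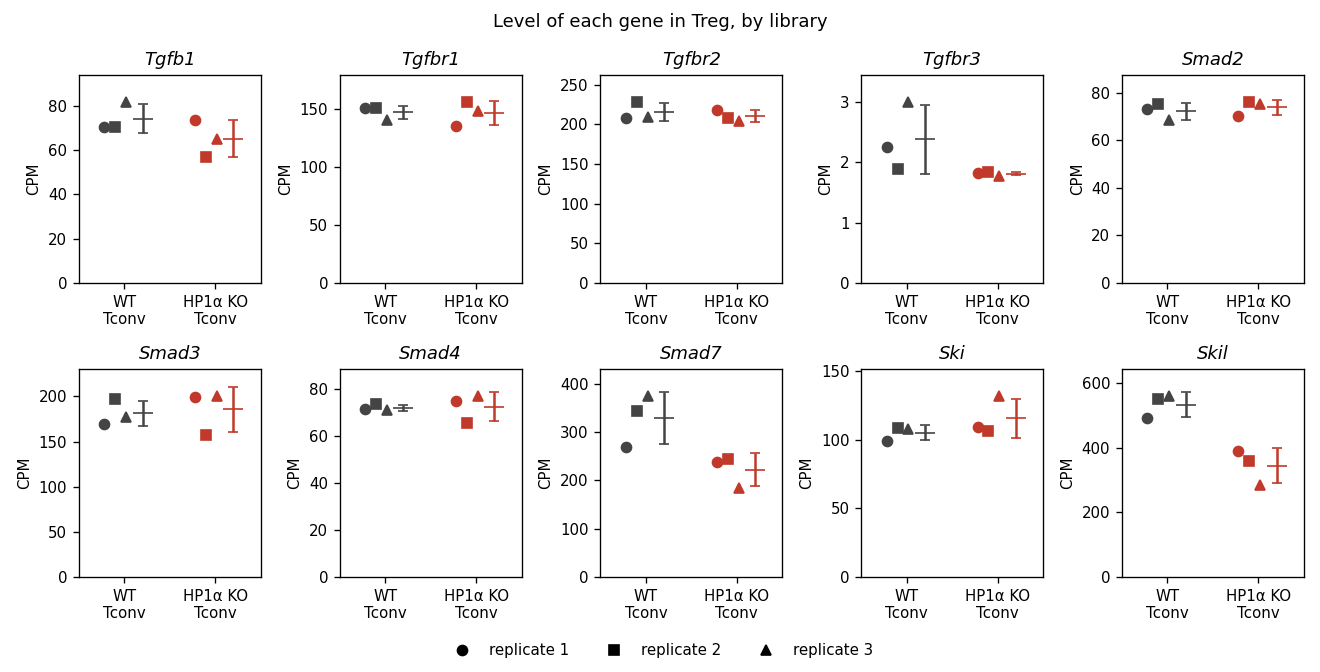
Level of each of the 10 genes in every library, in CPM on an axis that starts at 0, with each replicate number as its own marker and the group mean and SD beside the points. Skil and Smad7 are the genes of high level whose groups do not overlap, and Tgfbr3, at 1.78 to 2.999 CPM, is the only other of the 10 without overlap.

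Counted over the 10 genes, 2 had an unadjusted edgeR p under 0.05, where 14.5% of all genes tested had one. Both were lower with HP1α KO Tconv, as were 7.52% of all genes at that threshold, with 6.98% higher. In 3 of the 10, Skil, Smad7 and Tgfbr3, the CPM of the 2 groups did not overlap, which held for 23% of all genes, and all 3 were lower, as were 11.6% of all genes. Of the 10, 4 had a higher mean and 6 a lower one with HP1α KO Tconv, and the log2 fold changes ran from -0.63 to 0.14 with a median of -0.02, beside -0.01 over all genes tested. The median size of the fold change, its sign set aside, was 0.09 on the log2 scale for the 10 genes and 0.17 for all genes.

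**Figure D2:**
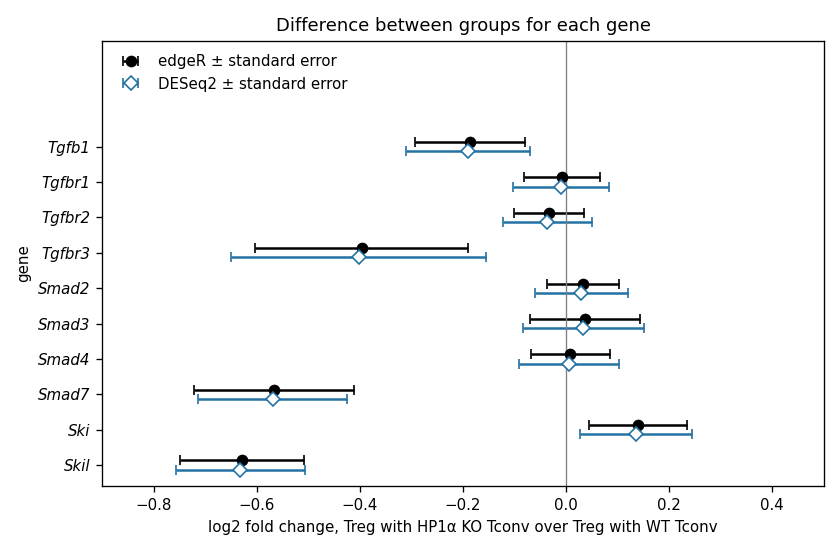
Log2 fold change of each gene between Treg with HP1α KO Tconv and Treg with WT Tconv, by edgeR (filled circles) and by DESeq2 (open diamonds), with standard errors as bars. Skil at -0.63 and Smad7 at -0.57 lie to the left, and the receptors and receptor-regulated Smads lie at 0 within their errors, apart from Tgfbr3 at -0.40.

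Skil, the gene for the repressor SnoN, lies on chromosome 3 at 31148816 to 31176740 of GRCm39, on the plus strand. It stood at 490.5, 549.5 and 560.0 CPM in the 3 libraries with WT Tconv and at 390.9, 359.5 and 283.7 CPM with HP1α KO Tconv. The groups did not overlap: the highest library with HP1α KO Tconv lay below the lowest with WT Tconv. Its mean was 533.3 ± 37.5 CPM against 344.7 ± 55.1 (SD, n = 3 each), or -0.63 ± 0.121 as log2 fold change and standard error, the form used for the genes that follow. The unadjusted edgeR p was 0.00078 and the adjusted p 0.209, and over the other ways of fitting, DESeq2 included, the adjusted p ran from 0.000237 to 0.437. DESeq2 gave 0.000237 with all libraries and 0.0157 without WT replicate 3, the library with the most red cell and neutrophil RNA. The log2 fold change lay between -0.72 and -0.51 when any 1 library was left out.

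Smad7, on chromosome 18, encodes the inhibitory Smad that competes for the activated type I receptor and marks it for removal. It stood at 269.2, 344.3 and 375.1 CPM with WT Tconv and at 238.5, 245.0 and 183.9 CPM with HP1α KO Tconv. These groups did not overlap either, but the gap was small, from 245.0 CPM in HP1α KO replicate 2 to 269.2 CPM in WT replicate 1. The means were 329.6 ± 54.5 and 222.5 ± 33.6 CPM (SD, n = 3 each) and the log2 fold change -0.57 ± 0.156 (standard error), with an unadjusted edgeR p of 0.00848 and an adjusted p of 0.225. DESeq2 gave an adjusted p of 0.00714, which became 0.118 without WT replicate 3, at a log2 fold change of -0.47 and with 1 library fewer. DESeq2 was not run without any other library. Over all alternatives the adjusted p of Smad7 ran from 0.00714 to 0.437.

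Ski, the closest relative of Skil and like it a repressor that recruits corepressors to Smad complexes, did not share its difference. It lies on chromosome 4 at 155238532 to 155307543 of GRCm39, on the minus strand, and stood at 98.96, 108.6 and 107.8 CPM with WT Tconv and at 109.1, 106.2 and 132.0 CPM with HP1α KO Tconv. These groups overlapped, and the highest value, in HP1α KO replicate 3, came from the library in which Skil and Smad7 were lowest. The log2 fold change was 0.14 ± 0.0944 (edgeR adjusted p = 0.538) and was 0.04 without that library. The ratio of Skil to Ski within a library was 4.96, 5.06 and 5.20 with WT Tconv and 3.58, 3.39 and 2.15 with HP1α KO Tconv, so the balance between the repressors lay further towards Ski in each of the 3 latter libraries. The difference of the log2 ratios was -0.77 in an exact two-sided permutation test with p = 0.1, the smallest that 3 libraries against 3 can give.

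The ratio of Smad7 to Smad3, an inhibitor set against a transducer, was 1.59, 1.75 and 2.12 with WT Tconv and 1.20, 1.56 and 0.917 with HP1α KO Tconv. The difference of the log2 ratios was -0.60, with the same exact permutation p of 0.1. In HP1α KO replicate 3 alone Smad7 stood below Smad3. In all, 4 ratios between genes were compared, and none could reach a p below 0.1 whatever its size.

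Tgfb1, the ligand, lies on chromosome 7 at 25386390 to 25404506 of GRCm39. It stood at 70.2, 70.4 and 81.7 CPM with WT Tconv and at 73.5, 56.9 and 64.8 CPM with HP1α KO Tconv. The groups overlapped through HP1α KO replicate 1. The highest library was WT replicate 3, which held the most RNA of macrophages, neutrophils and red cells, and the lowest was HP1α KO replicate 2, the one low in mitochondrial RNA and Malat1. The means were 74.1 ± 6.57 and 65.1 ± 8.31 CPM (SD, n = 3 each), for a log2 fold change of -0.19 ± 0.107 (edgeR adjusted p = 0.469). Without WT replicate 3 or any other single library it lay between -0.27 and -0.10. The part of those other cells in the value was not tested.

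Tgfbr2, the type II receptor, binds the ligand and starts the signal. It was measured at 207.8, 228.4 and 209.8 CPM with WT Tconv and at 218.5, 208.7 and 204.0 CPM with HP1α KO Tconv, and the ranges overlapped over most of their length. Its log2 fold change was -0.03 ± 0.0671 (edgeR adjusted p = 0.846), and an approximate 95% interval from that error ran from -0.22 to 0.15. The gene lies on chromosome 9 at 115913361 to 116004800 of GRCm39, on the minus strand, and shares 5.04% of its exonic bases with Gm4668, a gene on the other strand that had 600 counts over the 6 libraries together.

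Tgfbr1, the type I receptor kinase that Smad7 acts on, was at 150.9, 150.9 and 141.2 CPM with WT Tconv and at 135.6, 156.5 and 148.5 CPM with HP1α KO Tconv. Here too the groups overlapped, and the highest and the lowest library both held HP1α KO Tconv. With that spread, the log2 fold change of Tgfbr1 was -0.01 ± 0.0734 (edgeR adjusted p = 0.973, approximate 95% interval -0.21 to 0.20). It lies on chromosome 4 at 47353134 to 47414931 of GRCm39, on the plus strand. The ratio of Tgfbr2 to Tgfbr1 lay between 1.38 and 1.51 with WT Tconv and between 1.33 and 1.61 with HP1α KO Tconv, a difference of -0.02 on the log2 scale (exact two-sided permutation test, p = 0.8).

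Tgfbr3, betaglycan, is a coreceptor that presents ligand to Tgfbr2, and was the weakest of the 10 genes. It had 217, 182 and 351 counts with WT Tconv and 165, 183 and 157 with HP1α KO Tconv, or 2.258, 1.884 and 2.999 CPM against 1.815, 1.832 and 1.778. In CPM the groups did not overlap, though WT replicate 2 exceeded HP1α KO replicate 2 by a narrow margin and had 1 count fewer. The log2 fold change of -0.40 (standard error 0.207, edgeR adjusted p = 0.430) rested in good part on WT replicate 3: it was -0.20 without that library and -0.53 without WT replicate 2. It lies on chromosome 5 at 107249402 to 107437623 of GRCm39, on the minus strand, and 4.34% of its exonic bases are shared with Gm43422 on the same strand, a gene model with 72 counts in all.

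For Tgfbr1, the RefSeq promoter windows on GRCm38.p6 were set beside these levels. The 250 bases before each start were searched on both strands for CAGAC, a form of the Smad binding element that Smad3 and Smad4 recognise, whose reverse complement is GTCTG. Of all 32851 windows 42.2% held it, and so did a window of 2 of the 5 genes of the set that have one, among them that before a second RefSeq start inside Tgfbr1. The site is at chr4:47386001-47386029 on the plus strand. It is shown 5′ to 3′ with the motif in capitals, as a stretch of that window that holds the letters of a Smad site.
Tgfbr1: tttcgaactcagCAGACagccccacggtc
A match describes the letters in the window only, and the groups overlapped for Tgfbr1.

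Smad2 and Smad3, the receptor-regulated Smads, carry the signal from Tgfbr1. Smad2 was at 73.0, 75.2 and 68.4 CPM with WT Tconv and at 70.1, 76.2 and 75.3 CPM with HP1α KO Tconv. The groups overlapped, and the log2 fold change was 0.03 ± 0.0690 (edgeR adjusted p = 0.853, approximate 95% interval -0.16 to 0.22). Smad3, which binds DNA directly, was at 169.4, 196.7 and 177.2 CPM with WT Tconv and at 199.6, 157.3 and 200.5 CPM with HP1α KO Tconv. Its values spread more widely with HP1α KO Tconv, where replicate 2 was the lowest of all 6, and its log2 fold change was 0.04 ± 0.107 (edgeR adjusted p = 0.898, approximate 95% interval -0.26 to 0.33). The ratio of Smad3 to Smad2 averaged 1.33 and 1.32 on the log2 scale (SD 0.0951 and 0.244), a difference of -0.00 (exact two-sided permutation test, p = 1.0). Smad3 lies on chromosome 9 at 63554049 to 63665476 of GRCm39, on the minus strand, and Smad2 on chromosome 18.

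Smad4, the common partner of the receptor-regulated Smads and also on chromosome 18, was at 71.5, 73.6 and 71.0 CPM with WT Tconv and at 74.8, 65.4 and 77.1 CPM with HP1α KO Tconv. The WT libraries lay inside the range of the others, of which replicate 2 was again the lowest. Its log2 fold change was 0.01 ± 0.0772 (edgeR adjusted p = 0.970, approximate 95% interval -0.21 to 0.22). The intervals of Tgfbr1, Tgfbr2, Smad2 and Smad4 all lay within 0.23 of 0 on the log2 scale.

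**Figure D3:**
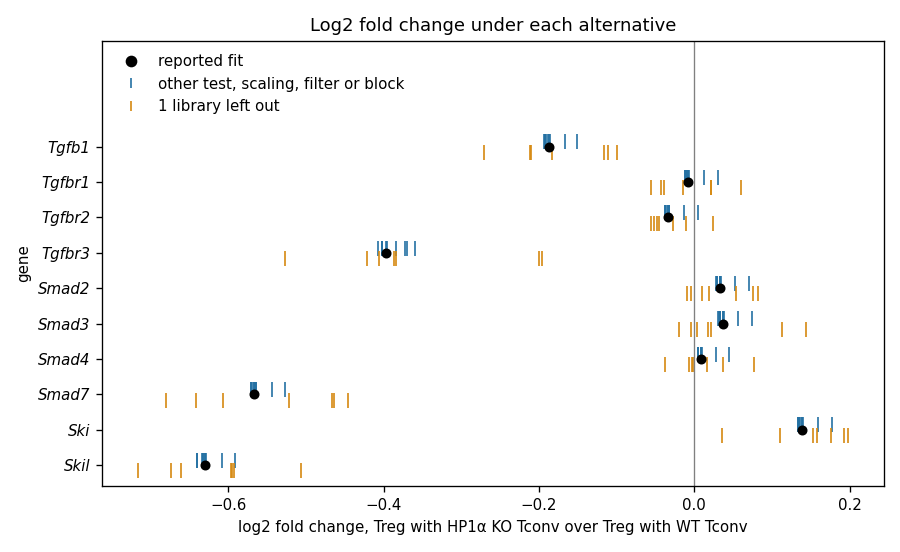
Log2 fold change of each gene under the reported fit (black circles), under other tests, scalings, filters or a replicate block (blue ticks) and with 1 library left out (orange ticks). Skil stays between -0.72 and -0.51 and Smad7 between -0.68 and -0.45, and Tgfbr1, Tgfbr2, Smad2, Smad3 and Smad4 have ticks on both sides of 0.

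Divided by the length of their annotated exons, the levels set the feedback inhibitors above the signalling chain. With WT Tconv, Smad7 averaged 69.4 CPM per kb of exon and Skil 52.8. Smad3 followed at 31.3, Tgfbr2 at 24.5, Tgfbr1 at 22.3, Ski at 17.4 and Tgfb1 at 14.6 CPM per kb. Smad4 at 9.92, Smad2 at 6.42 and Tgfbr3 at 0.348 CPM per kb closed the order. Smad3 thus stood well above its sister Smad2, and no neighbours in the order overlapped between libraries with WT Tconv. With HP1α KO Tconv the order was the same, with Smad7 at 46.9, Skil at 34.1 and Smad3 at 32.1 CPM per kb, and Skil then overlapped Smad3, as Tgfbr2 did Tgfbr1 and Tgfbr1 did Ski. Where the longest transcript was used as the length, Skil came first with WT Tconv at 74.9 and Smad7 second at 73.2, and Tgfb1 moved from the seventh to the fourth place at 28.8 CPM per kb. The overlaps also depended on the length used. By longest transcript, Smad7 (59.8 to 83.3) and Skil (68.8 to 78.6) overlapped with WT Tconv, as did Tgfbr2 and Tgfbr1. With HP1α KO Tconv, Skil (39.8 to 54.9) then lay above Smad3 (29.7 to 37.9) without overlap.

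**Figure D4:**
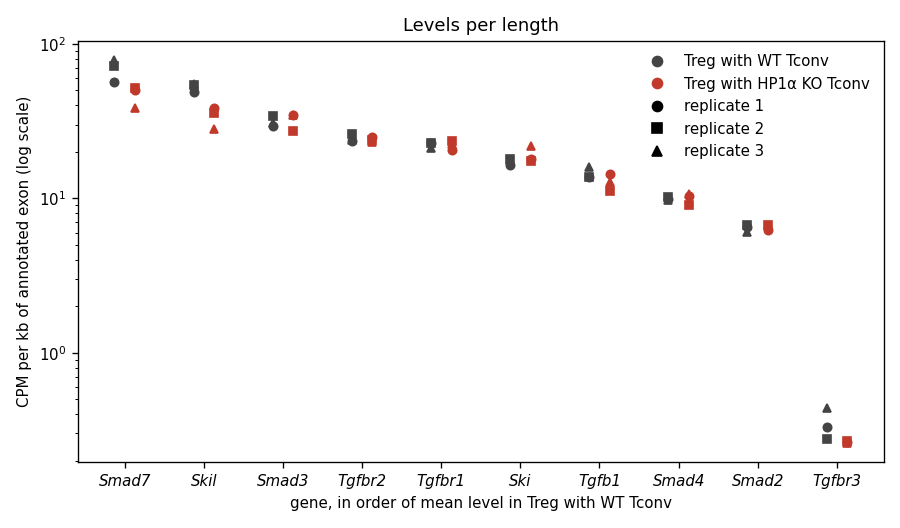
Level of each gene per kb of annotated exon, in CPM per kb on a log axis, by library, in the order of the mean with WT Tconv. Dark grey marks are libraries with WT Tconv and red marks those with HP1α KO Tconv, and the genes run from Smad7 at 69.4 down to Tgfbr3 at 0.348 CPM per kb with WT Tconv.

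The genes whose pattern over the 6 libraries was most like that of Skil were Dusp10, a phosphatase that switches off the stress kinases p38 and JNK, Trp53inp2, known for a part in autophagy, and Emp1, an epithelial membrane protein. Their log2 CPM, centred on its mean, differed from that of Skil by a root mean square of 0.0594, 0.0608 and 0.0652, the smallest of 8847 genes with at least 10 CPM on average. Among the other 9 genes of the set Smad7 was nearest to Skil, at 0.103, and Ski the farthest, at 0.452. Dusp10 had a log2 fold change of -0.64, Trp53inp2 of -0.51 and Emp1 of -0.52. Since the libraries are the same 6, this likeness is a description with no test.

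Around the 10 genes, 71 others of the TGF-β and BMP pathways were listed by role, of which 70 were in the table and 59 could be tested. None passed an adjusted p of 0.05 in edgeR, and 15 had an unadjusted p under 0.05, 4 of them higher and 11 lower with HP1α KO Tconv, where 14.5% of all genes tested had one, 6.98% higher and 7.52% lower. Their median log2 fold change was -0.11, with 16 higher and 43 lower, beside a median of -0.01 with 8890 higher and 9431 lower over all genes. DESeq2 called 3, Tab1, Traf6 and Itgav, of the 49 to which it gave an adjusted p, beside 4.35% of all such genes, and without WT replicate 3 it called Tab1 alone of the list. The list and the 10 genes were chosen with earlier results of these data known.

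**Figure D5:**
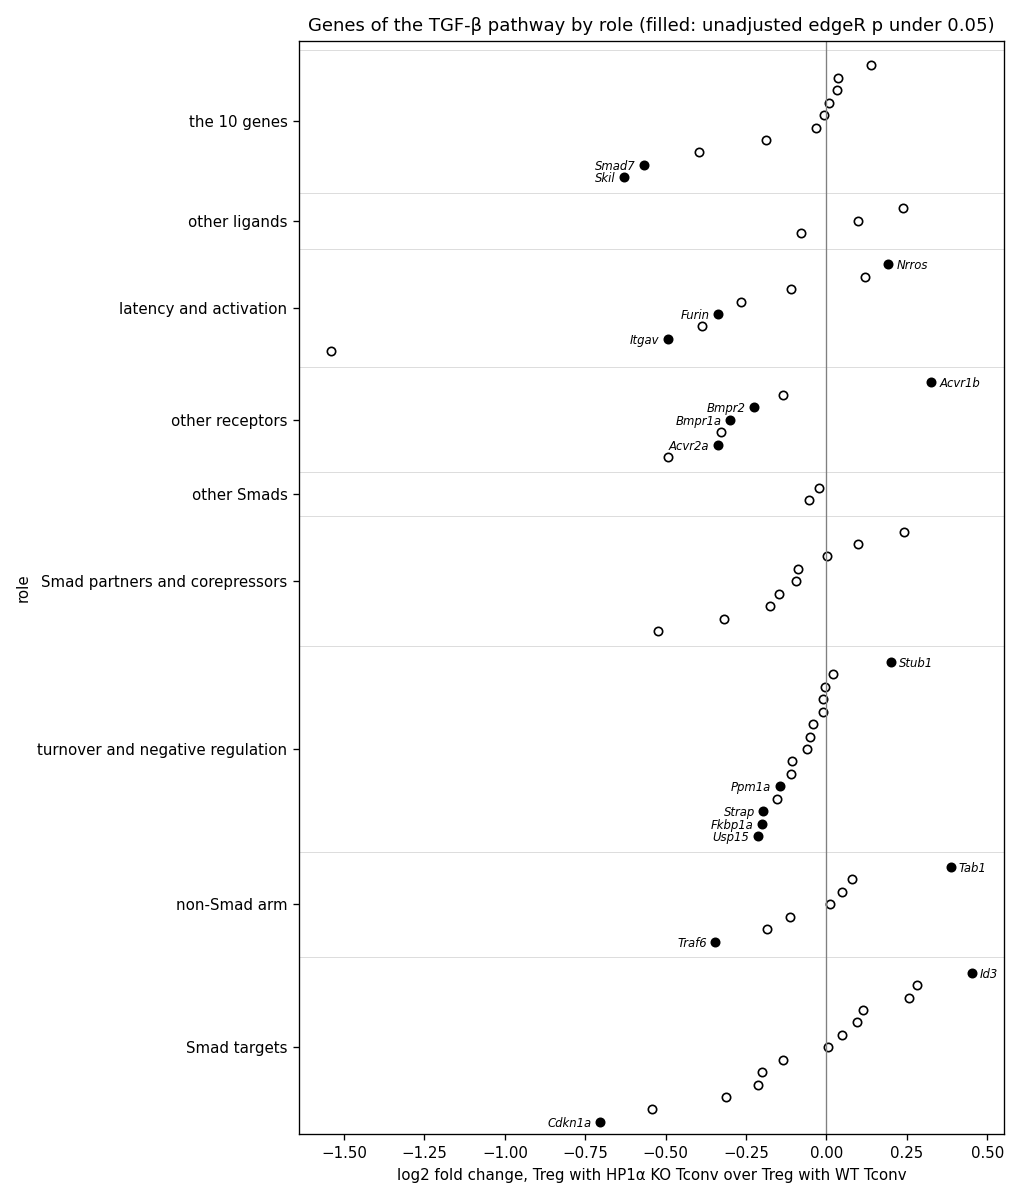
Log2 fold change of the 74 genes of the set, of its pathway by role and of its targets with a mean of at least 1 CPM in either group, each gene on its own line within its role. Filled and named points have an unadjusted edgeR p under 0.05; none has an adjusted p under 0.05. Points to the left were lower with HP1α KO Tconv, and the filled points of turnover and negative regulation lie there except Stub1.

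In the arm that does not pass through Smads, Tab1 and Traf6 stood in opposite directions. Tab1, the partner that activates the kinase Map3k7 (TAK1), was at 16.2, 16.4 and 17.4 CPM with WT Tconv and at 21.9, 22.1 and 21.4 CPM with HP1α KO Tconv, higher by 0.39 on the log2 scale (edgeR adjusted p = 0.209, DESeq2 adjusted p = 0.0124, or 0.0132 without WT replicate 3). Every library with HP1α KO Tconv lay above every library with WT Tconv. Traf6, the ubiquitin ligase that couples the receptors to that kinase, was at 250.5, 267.7 and 270.8 CPM against 224.1, 214.4 and 182.3, a log2 fold change of -0.35 (edgeR adjusted p = 0.209, DESeq2 adjusted p = 0.0297, or 0.143 without WT replicate 3). Map3k7 itself differed by 0.05 on the log2 scale.

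Among the 9 other receptors tested, 4 had an unadjusted p under 0.05, 1 higher and 3 lower, beside 14.5% of all genes. Acvr1b, the type I activin receptor, averaged 12.5 CPM with WT Tconv and 15.6 CPM with HP1α KO Tconv (log2 fold change 0.32, edgeR adjusted p = 0.280). Acvr2a, a type II activin receptor, had a log2 fold change of -0.34 and Bmpr2, the type II BMP receptor, of -0.22. Bmpr1a, a type I BMP receptor, had one of -0.30. Bambi, a decoy receptor without a kinase, overlapped between groups with a log2 fold change of -0.33. It was at 7.45, 8.853 and 9.585 CPM with WT Tconv. With HP1α KO Tconv it was at 7.138, 8.508 and 4.972 CPM, the lowest in replicate 3. The BMP Smads Smad1 and Smad5 differed by -0.02 and -0.05. Smad6, the inhibitory Smad of the BMP branch, was at 0.0880 to 0.435 CPM in all libraries, with an unadjusted edgeR p of 0.0454 and an adjusted p of 0.333.

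The genes that hold the ligand latent and release it were measured for 11 members, 9 below and 2 above 0 with a median log2 fold change of -0.39, and 3 had an unadjusted p under 0.05. Over all genes the median was -0.01 and 14.5% had such a p. The median is the value of Lrrc32, given next, and 4 of the 9 lower genes, Ltbp1 to Ltbp4, were at no more than 1.367 CPM in any library. Thbs1 was at 8.133 CPM in WT replicate 3 and at 0.751 to 2.013 CPM in the other libraries. Lrrc32, which encodes GARP, the docking protein for latent TGF-β1 on activated Treg, was at 141.4, 147.6 and 134.4 CPM with WT Tconv and at 142.4, 61.1 and 120.4 CPM with HP1α KO Tconv. The low value came from replicate 2, the library low in mitochondrial RNA and Malat1. The log2 fold change of Lrrc32 was -0.39 (edgeR adjusted p = 0.634) and was -0.10 without that library. Furin, the protease that cleaves the TGF-β1 precursor, had a log2 fold change of -0.34 (edgeR adjusted p = 0.262). Itgav, the αv integrin that frees the ligand, had one of -0.49 (edgeR adjusted p = 0.319, DESeq2 adjusted p = 0.0415). Without WT replicate 3 DESeq2 did not call Itgav. It was at 217.7, 225.3 and 218.0 CPM with WT Tconv. With HP1α KO Tconv it was at 188.5, 111.2 and 170.1 CPM, again with the lowest value in replicate 2. Its partner Itgb8 was at 119.5 to 123.8 CPM with WT Tconv and 96.9 to 132.6 CPM with HP1α KO Tconv. Nrros, a relative of GARP, had a log2 fold change of 0.19 (edgeR adjusted p = 0.249).

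Genes for the turnover of receptors and Smads were tested in full, 15 of 15. Of these 5 had an unadjusted p under 0.05, beside 14.5% of all genes, with Stub1, a ubiquitin ligase, at a log2 fold change of 0.20 and Usp15, Fkbp1a, Strap and Ppm1a lower, by no more than -0.21. Smurf2, the ligase that Smad7 brings to the receptor, differed by -0.01 on the log2 scale. Of the partners and corepressors, 0 of 10 had an unadjusted p under 0.05. Tgif1, a homeodomain repressor of Smad targets, was at 267.4, 268.3 and 320.7 CPM with WT Tconv and at 220.9, 245.4 and 129.8 CPM with HP1α KO Tconv, with its lowest value in replicate 3, as for Skil and Smad7, and a log2 fold change of -0.52 (edgeR adjusted p = 0.421).

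Of 17 genes known to be turned on or off by TGF-β signals through Smads, none passed the adjusted test in edgeR. An unadjusted p under 0.05 was found for 3, a share near the 14.5% of all genes. With 1 library left out the 3 became 1 to 8. Cdkn1a, which encodes the cell cycle inhibitor p21, was at 57.8, 60.0 and 69.6 CPM with WT Tconv and at 42.5, 47.0 and 25.5 CPM with HP1α KO Tconv, without overlap. Its log2 fold change was -0.71 (edgeR adjusted p = 0.284, DESeq2 adjusted p = 0.00932, or 0.135 without WT replicate 3), and its lowest library was HP1α KO replicate 3, as for Skil and Smad7. Id3, an inhibitor of E proteins, was at 10.1 to 11.43 CPM with WT Tconv and 12.89 to 17.75 CPM with HP1α KO Tconv, higher by 0.45 on the log2 scale (edgeR adjusted p = 0.230). The median over the 17 was -0.13, with 8 higher and 9 lower.

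The targets most tied to Treg did not differ beyond the spread of the libraries. Foxp3 was at 200.1, 221.8 and 209.2 CPM with WT Tconv and at 227.9, 153.6 and 251.7 CPM with HP1α KO Tconv, with a log2 fold change of 0.00 (edgeR adjusted p = 0.994). The lowest and the highest library both held HP1α KO Tconv. Itgae, the αE integrin (CD103) that TGF-β induces on T cells, was at 545.1 to 562.3 CPM with WT Tconv and 543.9 to 655.4 CPM with HP1α KO Tconv, higher by 0.09 on the log2 scale and by 0.012 without HP1α KO replicate 2 and 0.15 without replicate 3. Klf10, an early target, had a log2 fold change of -0.31 (edgeR adjusted p = 0.483), Id2 of -0.20 and Myc of 0.26, none with an unadjusted p under 0.05. With 1 library left out, Klf10 ran from -0.48 to -0.16, Id2 from -0.29 to -0.11 and Myc from 0.087 to 0.38. Of the other genes of Treg identity, Il2ra, the IL-2 receptor α chain, differed by -0.04 on the log2 scale. Ctla4, an inhibitory receptor, differed by -0.38, with a DESeq2 adjusted p of 0.0414, or 0.0576 without WT replicate 3, and no call in edgeR. Its groups did not overlap, with 1246, 1349 and 1112 CPM beside WT Tconv and 1028, 1018 and 797.9 CPM beside HP1α KO Tconv.

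Since these were sorted cells measured in bulk, fewer cells of a kind that expresses a gene and less RNA of it per cell cannot be told apart. Markers of other cells were set beside the 2 inhibitors. The share of Malat1, given above, did not overlap between the groups and was lower with HP1α KO Tconv, as Skil and Smad7 were, and its part in their values was not tested. Red cell genes were at 370.2 to 5501 CPM with WT Tconv and at 383.6 to 687.7 with HP1α KO Tconv, and all of the excess lay in WT replicate 3. In WT replicate 1, a library with 379.3 CPM of red cell genes, Skil was at 490.5 and Smad7 at 269.2 CPM. The part of red cell RNA in the values of Skil and Smad7 was not tested. Genes of stroma and endothelium were at 67.1 to 77.7 CPM with WT Tconv and 82.2 to 90.6 with HP1α KO Tconv, nearly all of it Pecam1, at 66.2 to 76.4 CPM against 81.0 to 89.1. The other 5 genes of that list were under 1 CPM in all libraries, and the part of either in the results was not tested. The immediate early genes Fos, Jun, Egr1 and 9 others, which rise when cells are handled, summed to 2428 to 2685 CPM with WT Tconv and 2516 to 2762 CPM with HP1α KO Tconv. The sums overlapped while single genes stood both ways: Fos was higher, by 0.30 on the log2 scale, and Egr1 and Dusp1 lower, by -0.32 and -0.22, each without overlap and with no edgeR adjusted p under 0.05. This list was added after the values had been seen.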

How the data were processed

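RNA was sequenced from 6 libraries of sorted Treg, 3 per group, prepared with a stranded total RNA kit. The table deposited by the authors holds estimated counts per gene, which are not whole numbers and were not normalized. The submitters' processing notes name STAR, Salmon and the mouse builds GRCm39 and mm39, without versions, and whether strand was used in counting is not given in the sources used here. Here the counts were rounded and scaled by TMM, genes with too few counts were removed by filterByExpr (18321 of 29199 kept), and groups were compared with edgeR 4.0.16 (R 4.3.3) by the quasi-likelihood test with Benjamini-Hochberg adjustment over all genes kept and a threshold of 0.05. DESeq2 1.42.0 and limma-voom (limma 3.58.1), other scalings and filters, a replicate block and leaving out each library were alternatives. The script was tested on simulated data. Approximate 95% intervals use the standard error and the residual degrees of freedom of 6 libraries in 2 groups. Marker sums use CPM of total counts. Levels per length use the GRCm39 annotation. Named were the 10 genes, up to 4 genes per direction of the pathway and target lists by unadjusted p, 6 Treg genes, and the 3 genes most like the member of smallest p. Other genes named were chosen after their values were seen. The members and lists were chosen with earlier results of these data known. Transcripts that match a member's over at least 200 bases at 95% identity were those of Gm4668 for Tgfbr2 and of Gm43422 for Tgfbr3, which overlap them in the genome. Some items of the target list and of the promoter search are not reported here.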

Additional observations from a re-analysis of the deposited data

How the results depend on the processing

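The count of genes past an adjusted p of 0.05 was 0 in edgeR, 526 with DESeq2, 38 with no filter beyond 1 count, 1 with upper quartile scaling, 1 with the replicate block and 0 to 2 with 1 library left out, the most without HP1α KO replicate 1. DESeq2 without WT replicate 3, added once the values were known, gave 181. Of the 10 genes DESeq2 called 2, and 1 without that library. Of the pathway list it called 3, and 1 without that library, and of the targets 1, and 0 without that library. The 15 pathway genes with an unadjusted p under 0.05 became 8 with DESeq2 without WT replicate 3 and 7 to 21 with 1 library left out, the fewest without WT replicate 3 and the most without HP1α KO replicate 2. The 3 targets became 1 to 8, the fewest without WT replicate 2 or 3 and the most without HP1α KO replicate 2. Over 17 alternatives Skil, Smad7, Tgfb1, Tgfbr3 and Ski kept their sign. The values near 0 did not: Tgfbr1 was 0.013 with upper quartile scaling, 0.031 with total counts and -0.055 to 0.060 with 1 library left out, and Tgfbr2 was 0.0044 with total counts and -0.052 to 0.024. With 1 library left out Smad2 ran from -0.0044 to 0.082, Smad3 from -0.020 to 0.14, Smad4 from -0.037 to 0.077, Foxp3 from -0.14 to 0.19 and Il2ra from -0.18 to 0.15, the log2 ratio of Smad3 to Smad2 differed by -0.10 to 0.14 and that of Tgfbr2 to Tgfbr1 by -0.11 to 0.029. DESeq2 without WT replicate 3 gave -0.0087 for Smad2, -0.0061 for Smad4 and -0.0039 for Foxp3, and limma-voom -0.026 for Foxp3. The causes were not tested. Tgfbr3 had the fewest counts of the 10 genes, 157 to 351 per library.

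The labels give the replicate numbers no shared source, and the correlations of the deviations of same-numbered libraries from their group means were -0.04, 0.18 and 0.12, which does not establish a pairing. With the replicate block, Skil was at -0.64 (edgeR adjusted p = 0.41), Smad7 at -0.56 (edgeR adjusted p = 0.42) and Foxp3 at -0.024, and the count of genes past the threshold was 1. Not every library correlated best with its own number.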
